A study of Homo sapiens with 12 samples.

Results

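Tumour cells can hold back T cells and macrophages through a small set of genes, and 10 of these are described here across 12 libraries whose label is HT29, a cell line from a human colon carcinoma. They were taken by name from the 18665 genes in the deposited tables, and all 10 had a row for every library. Of these genes, 9 encode proteins that a cell surface carries or that are secreted and bind a receptor on an immune cell: CD274 (PD-L1), PDCD1LG2 (PD-L2), CD276 (B7-H3), VSIR (VISTA), LGALS9 (galectin-9), LGALS3 (galectin-3), NECTIN2, PVR and CD47. IDO1 is no ligand but an enzyme that breaks down tryptophan, and it belongs with them because T cells need that amino acid. PD-L1 and PD-L2 bind PD-1 on T cells and dampen their activation, and interferon gamma from T cells is the best known inducer of both PD-L1 and IDO1. In normal colon epithelium PD-L1 is scarce, and it can be induced in inflamed tissue and tumours.

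The study asked whether blocking ALDH1A1 or ZBTB7B goes together with checkpoint inhibition in tumours. There were 4 groups of 3 libraries. By their labels, CM10 libraries are HT29 cells treated with CM10, an inhibitor of ALDH1A enzymes, used at 10 µM for 2 h in the study's experiments with these cells, and were set against CTRL_CM10. shZBTB7B libraries are labelled as HT29 cells with a short hairpin RNA against ZBTB7B, a zinc finger transcription factor, and were set against CTRL_shZBTB7B. The vehicle, the control hairpin, and whether the knockdown line was a clone or a pool are not stated in the labels or methods used here. The labels do not say that replicates were separate cultures. The spread behind each p-value is therefore that of the libraries at hand, and it may be technical.

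CD274 and PDCD1LG2 are neighbours on chromosome 9, at 5450503 to 5470566 and at 5510531 to 5571282 in GRCh37, 39964 bases apart and on the same strand. Because PD-L1 is the protein the study followed, the 250 bases before the annotated start of CD274 are shown, with the matches to a pair of short motifs in capitals. The first motif was a pair of GAAA words with 2 bases between them, the core of the element bound by interferon regulatory factors, searched on both strands. The second was TTCNNNGAA, the palindrome bound by STAT proteins, which reads the same on both strands. The sequence is RefSeq's in build GRCh38.p14, chr9:5450292-5450541, plus strand.
CD274: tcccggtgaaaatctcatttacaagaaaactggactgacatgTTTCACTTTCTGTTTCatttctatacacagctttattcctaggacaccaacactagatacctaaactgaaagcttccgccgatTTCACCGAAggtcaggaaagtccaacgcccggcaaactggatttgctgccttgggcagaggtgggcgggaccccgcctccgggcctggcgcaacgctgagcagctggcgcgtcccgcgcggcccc
The GAAA pair was present on the minus strand in overlapping matches that begin 208 and 202 bases before the start, and the palindrome begins 125 bases before it. LGALS9 was the other gene of the 10 with a match, a GAAA pair on the minus strand that begins 9 bases before its start and ends on the first transcribed base, chr17:27631138-27631197, plus strand.
LGALS9: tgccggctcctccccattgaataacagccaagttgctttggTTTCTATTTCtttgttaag
Of 35116 windows of this length in the RefSeq table, which run from 250 bases before each start to 50 after it, 3.57% held the GAAA pair and 7.66% the palindrome. Windows were on hand for 8 of the 10 genes, and those of CD276, VSIR, LGALS3, NECTIN2, PVR and CD47 held neither motif. A match says only that the letters are there.

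The study measured CD274 by quantitative PCR in lung and colon cancer tissue of patients, with a primer pair of its own. The pair is shown because it fixes which CD274 transcripts that assay sees.
CD274 forward: tggcatttgctgaacgcattt
CD274 reverse: tgcagccaggtctaattgtttt
In the GENCODE annotation lifted to GRCh37 the forward primer crosses the junction of exons 2 and 3 and the reverse primer lies in exon 3 on chromosome 9, 5457161 to 5457182, minus strand. The product is 120 bases long. The pair matched 2 of the 5 annotated CD274 transcripts and no other gene, whereas a TPM value sums over all transcripts of the gene.

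Levels are in TPM, a length-corrected transcript abundance scaled to the same total in every library. TPM carries no sequencing depth, so no counting error can be attached to a value, and a gene that takes much of a library lowers all others in it. Genes that every cell uses were also listed at exactly 0, such as COPS5, a signalosome subunit, in CM10 replicates 2 and 3 and shZBTB7B replicate 1. A 0 is therefore described only as listed at 0. CM10 libraries had 8493 to 13051 genes above 0, against 13237 to 14627 in CTRL_CM10. The number was 9597 to 14354 in shZBTB7B libraries, against 15969 to 16245 in CTRL_shZBTB7B.

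Several libraries stood apart or went against their label, and these facts bear on every value below. Genes whose transcripts carry a 24-base word found in at least 1000 genes, as repeat elements do, took 64.7% to 70.5% of TPM in CM10 libraries and 3.21% to 16.3% in CTRL_CM10. With the hairpin their share was 59.5% in replicate 1, 6.90% in replicate 2 and 53.3% in replicate 3, against 10.95% to 12.5% in CTRL_shZBTB7B. IDO1 and PVR carry such words, all in the 3′ UTR (41 and 36 bases), and the other 8 genes carry none. The MTRNR2L gene family was uneven as well. It made up 0.28% to 2.78% of TPM with CM10, but 5.62%, 73.8% and 46.0% in the matching controls, in replicate order. In that order its share with the hairpin was 0.31%, 29.9% and 0.91%, beside 10.4%, 4.78% and 2.44% in CTRL_shZBTB7B. The extraction protocol in the labels speaks of tissue. The colon transcription factor CDX2 was listed at 0 in 8 of 12 libraries, while 10 colon epithelial markers summed to 41.3 to 90.05 TPM in CM10, 45.5 to 1127 in CTRL_CM10, 334 to 1764 in shZBTB7B and 61.4 to 2014 in CTRL_shZBTB7B. The 13 leukocyte markers summed to 18.8 to 67.7 TPM in CM10, 215 to 803 in CTRL_CM10, 169 to 738 in shZBTB7B and 219 to 4094 in CTRL_shZBTB7B. The groups are therefore named as labelled, and whether the libraries hold RNA of HT29 cells alone was not tested. In these bulk libraries, fewer cells of a type and less RNA per cell cannot be told apart. ZBTB7B itself, the target of the hairpin, was at 2.55, 5.97 and 0 TPM in shZBTB7B libraries, against 22.34, 25.06 and 25.36 TPM in their controls (log2 fold change -3.11, SE 0.93, limma adjusted p = 0.05798). ALDH1A1 was lower in CM10 libraries (log2 fold change -3.55, SE 0.93, limma adjusted p = 0.01074).

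**Figure D1:**
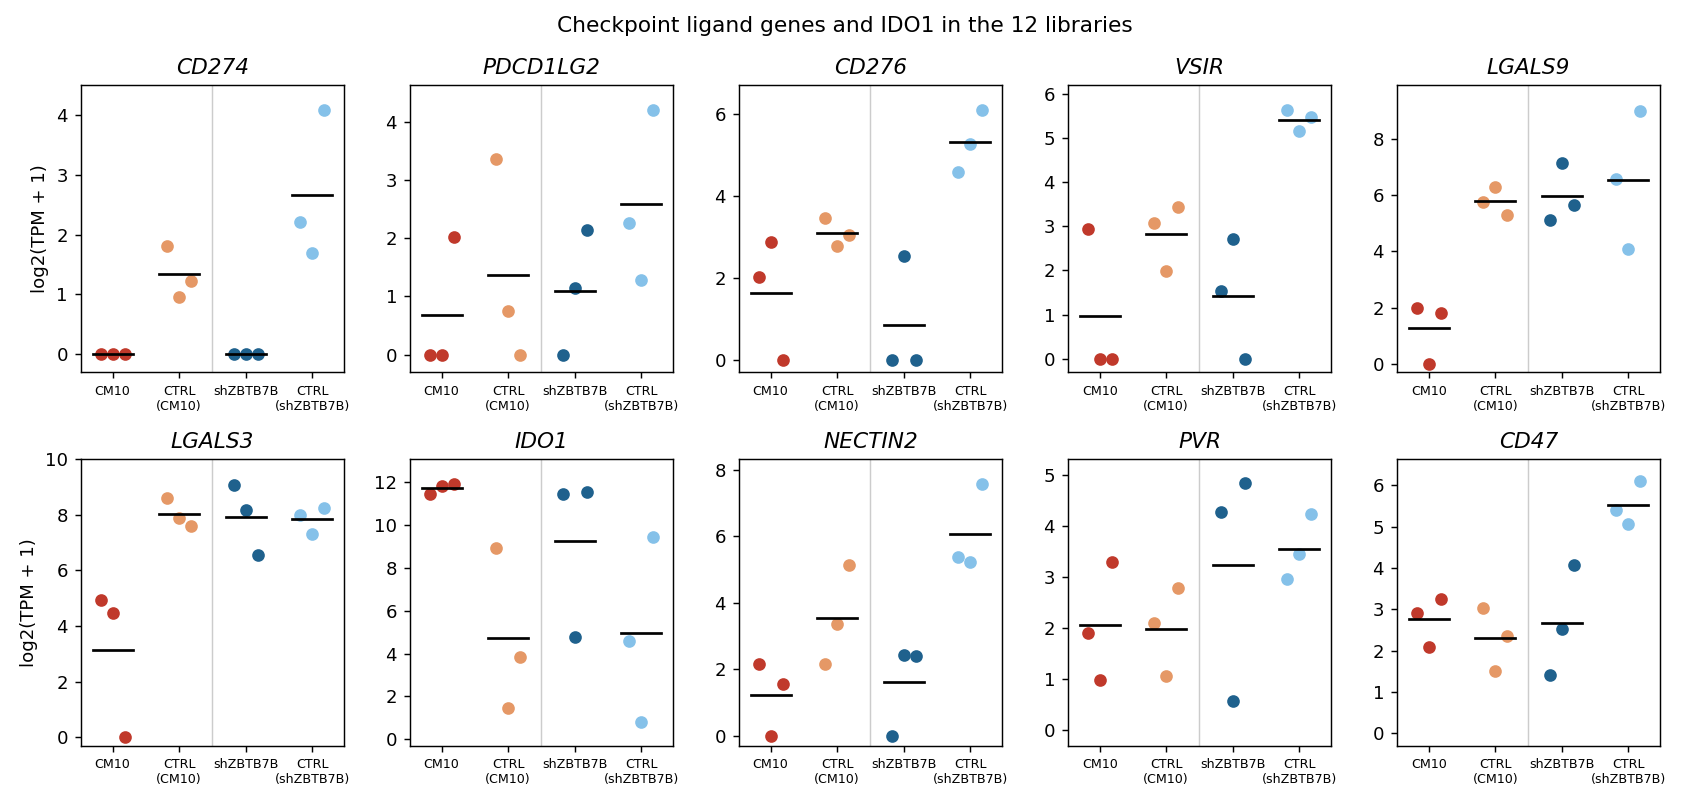
Level of each of the 10 genes as log2(TPM + 1) in every library (points, replicates 1 to 3 from left to right) with the group mean (bar), for CM10, its controls, shZBTB7B and its controls. CD274 lies at 0 in all CM10 and shZBTB7B libraries, and IDO1 is high in all 3 CM10 libraries and in 2 of 3 shZBTB7B libraries.

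Differences were tested with limma on log2(TPM + 1) over all genes of a table with at least 1 TPM in at least 3 of its 6 libraries, and a gene was called where its adjusted p was under 0.05. With CM10, 8 of the 10 genes passed that filter, and 1 was called higher (IDO1) and 2 lower (LGALS9 and LGALS3). Over all 12529 genes tested, 13.6% were called higher and 18.3% lower, so the counts among the 8 are near what the whole table showed. The median log2 fold change was -1.66 over these 8 genes and -1 over all genes. With the hairpin all 10 genes passed, CD274 only through its 3 control libraries. Of the 10, 0 were called higher and 4 lower (CD274, CD276, VSIR and NECTIN2), against 0.717% higher and 11% lower over 13665 genes. The medians were -2.07 for the 10 genes and -1.45 for all genes. All 4 hairpin calls were lost after quantile normalization, without the filter on low values, or when any 1 library other than shZBTB7B replicate 2 was left out. Under each of these settings 0 genes of the whole table were called, against 1602 in the fit reported here. Without the filter the fitted differences were those reported here, and with 1 library left out CD276, VSIR and NECTIN2 stayed between -5.31 and -3.30.

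Groups did not overlap for 1 gene that was higher (IDO1) and 3 that were lower (LGALS9, LGALS3 and NECTIN2) of the 8 tested with CM10, where 18.5% and 28.9% of all genes did the same. With the hairpin, 5 of 10 genes were lower without overlap (the 4 called and CD47) and 0 higher, against 42.4% and 3.02% of all genes. No gene of the 10 reached the thresholds the study used, an adjusted p under 0.001 with an absolute log2 fold change above 1. The study applied them with a different algorithm, and the share of all genes that reach them here was not counted. It is therefore no result about the 10 genes.

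**Figure D2:**
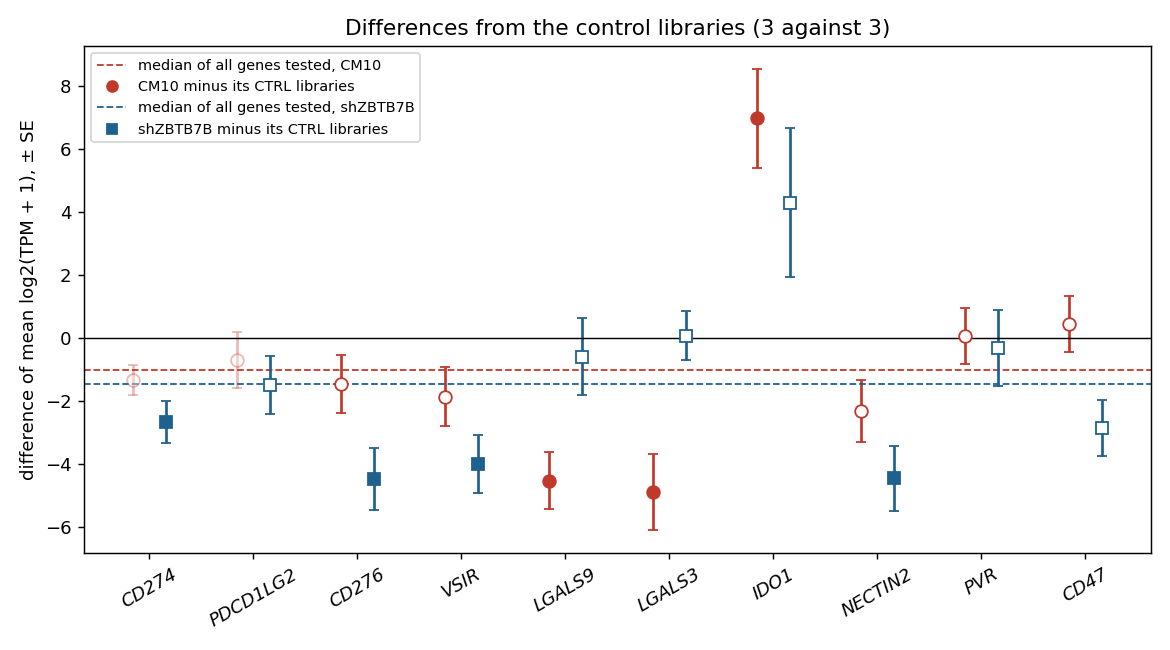
Difference of mean log2(TPM + 1) from the control libraries with its standard error, for CM10 (circles) and shZBTB7B (squares), 3 libraries against 3. Filled symbols passed an adjusted p of 0.05, pale ones did not pass the filter on low values, and dashed lines give the median of all genes tested, -1 for CM10 and -1.45 for shZBTB7B.

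CD274 was low in every library and was listed at 0 wherever cells had been treated or knocked down. It stood at 0 TPM in all 3 CM10 libraries, against 2.51, 0.95 and 1.35 TPM in CTRL_CM10. It stood at 0 TPM in all 3 shZBTB7B libraries, against 3.66, 2.22 and 16.05 TPM in CTRL_shZBTB7B. Neither pair of groups overlapped. No fold can be given against groups listed at 0. The fitted log2 differences depend on the pseudocount and are no bounds. For the hairpin that difference was -2.67 (SE 0.68, limma adjusted p = 0.04513), which is -1.22 relative to the median of all genes, and it was called. CD274 passed the filter only through the 3 control libraries, and without the filter it was not called (adjusted p = 0.0816). With CM10 the gene failed the filter on low values, and the fit without that filter gave -1.34 (SE 0.48, limma adjusted p = 0.07089), or -0.33 relative to the median. With each library other than shZBTB7B replicate 2 left out in turn, the adjusted p for the hairpin was 0.06667 to 0.1459. Over the 4 groups the order of mean TPM was CTRL_shZBTB7B (7.31 ± 7.60), CTRL_CM10 (1.60 ± 0.81) and then both perturbed groups at 0 (SD, n = 3 each). The control groups overlapped each other, and they come from tables that were deposited separately. They also differ in the share of TPM that MTRNR2L genes took.

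PDCD1LG2, the other ligand of PD-1, is best known from dendritic cells and macrophages, and it was about as low as CD274. It had 0, 0 and 3.07 TPM in CM10, against 9.26, 0.67 and 0 TPM in CTRL_CM10. It had 0, 1.21 and 3.41 TPM in shZBTB7B, against 3.76, 1.44 and 17.35 TPM in CTRL_shZBTB7B. All 4 groups overlapped their neighbours in the order of means, and the gene was called in neither comparison (limma adjusted p = 0.2478 with the hairpin). CTRL_shZBTB7B replicate 3 held the highest level of both PD-1 ligands, and it was also the library with the highest summed leukocyte markers, 4094 TPM, with TYROBP, a myeloid signalling adaptor, at 1150.47 TPM. The same library had the highest summed colon epithelial markers, 2014 TPM. The part of leukocytes or epithelium in the result was not tested.

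CD276 and VSIR, B7-related proteins that restrain T cells, were both called lower with the hairpin. CD276, found on many tumour types, had 0, 4.78 and 0 TPM in shZBTB7B libraries, against 22.87, 37.53 and 66.75 TPM in CTRL_shZBTB7B. The fitted log2 fold change was -4.47 (SE 0.99, limma adjusted p = 0.03907), which is -3.02 relative to the median. VSIR, which is most abundant on myeloid and T cells, had 1.91, 5.51 and 0 TPM in shZBTB7B libraries, against 48.40, 34.60 and 43.49 TPM in CTRL_shZBTB7B (-4.00, SE 0.91, adjusted p = 0.04037). Every shZBTB7B library lay below every control for both genes. With CM10 neither was called. CD276 had 3.02, 6.35 and 0 TPM in CM10, against 10.01, 5.79 and 7.18 TPM in CTRL_CM10, and VSIR had 6.67, 0 and 0 TPM in CM10, against 7.45, 2.96 and 9.92 TPM in CTRL_CM10. Both pairs of groups overlapped through 1 CM10 library. Both genes were highest in CTRL_shZBTB7B, with means of 42.4 and 42.2 TPM and no overlap with CTRL_CM10. Each of the other groups overlapped its neighbour in the order of means. MTRNR2L genes took 73.8% and 46.0% of TPM in CTRL_CM10 replicates 2 and 3. The part of that share in the gap between the control groups was not tested. VSIR lies within CDH23, a cadherin gene on the opposite strand of chromosome 10. CDH23 had 38.96, 0.54 and 70.13 TPM in shZBTB7B, against 5.03, 2.15 and 1.10 TPM in CTRL_shZBTB7B, and whether reads were counted by strand is not stated in the sources used here.

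NECTIN2 and PVR are adhesion proteins that bind the inhibitory receptor TIGIT and the activating receptor CD226, and only NECTIN2 was called, with the hairpin. NECTIN2 had 0, 4.34 and 4.27 TPM in shZBTB7B libraries, against 40.57, 36.55 and 187.61 TPM in CTRL_shZBTB7B. It was called lower (log2 fold change -4.45, SE 1.03, limma adjusted p = 0.04045), or -3.01 relative to the median. With CM10 it had 3.45, 0 and 1.92 TPM, against 3.46, 9.26 and 33.96 TPM in CTRL_CM10. The groups did not overlap, although the lowest control barely exceeded the highest CM10 library, and the gene missed the threshold (-2.31, SE 0.97, adjusted p = 0.07129). PVR lies 180001 bases upstream of it on chromosome 19 and was called in neither comparison. PVR had 18.50, 0.49 and 27.92 TPM in shZBTB7B, against 6.80, 9.96 and 17.92 TPM in CTRL_shZBTB7B, and the 2 libraries above every control are those with a high share of shared-word genes. In CM10 it had 2.77, 0.97 and 8.81 TPM, against 3.32, 1.08 and 5.90 TPM in CTRL_CM10, although CM10 libraries had the highest such shares. Over the 12 libraries, log2(TPM + 1) of PVR followed the share only weakly (Pearson's r = 0.198). All 4 groups overlapped their neighbours in the order of means, which ran from 15.6 ± 13.9 TPM in shZBTB7B to 3.43 ± 2.41 TPM in CTRL_CM10 (SD, n = 3 each).

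CD47, the signal that binds SIRPα on macrophages and holds back phagocytosis, had 1.68, 4.75 and 15.78 TPM in shZBTB7B libraries, against 41.37, 32.50 and 67.36 TPM in CTRL_shZBTB7B. Groups did not overlap, yet the gene missed the threshold (log2 fold change -2.85, SE 0.89, limma adjusted p = 0.0631). With CM10 it had 6.52, 3.29 and 8.54 TPM, against 7.25, 1.87 and 4.13 TPM in CTRL_CM10, and the groups overlapped. CTRL_shZBTB7B, at 47.1 ± 18.1 TPM (SD, n = 3), lay above the other 3 groups, which overlapped. The part of the MTRNR2L share of CTRL_CM10 in this order was not tested. Among the genes that act on CD47, QPCTL, the enzyme that modifies its SIRPα binding site, was called higher with CM10, with 352.89, 407.17 and 446.92 TPM, against 40.54, 0.94 and 8.98 TPM in CTRL_CM10 (5.43, SE 1.13, adjusted p = 0.003843). QPCTL carries a widely shared word. In shZBTB7B it had 356.84, 4.56 and 273.02 TPM, against 3.66, 9.01 and 9.11 TPM in CTRL_shZBTB7B.

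Among the ligands tested with CM10, both galectins were called lower. LGALS9, a ligand of the T cell receptor TIM-3, had 2.97, 0 and 2.52 TPM in CM10 libraries, against 53.75, 77.59 and 38.50 TPM in CTRL_CM10. The log2 fold change was -4.52 (SE 0.91, limma adjusted p = 0.003521), or -3.52 relative to the median, and the highest CM10 library lay far below the lowest control. LGALS3, a ligand of LAG-3 that epithelial cells and macrophages make in quantity, had 29.76, 20.99 and 0 TPM in CM10 libraries, against 382.01, 236.48 and 190.99 TPM in CTRL_CM10. Its log2 fold change was -4.89 (SE 1.20, adjusted p = 0.007633). Relative to the median it stood at -3.88. In the same contrast 6 of 11 leukocyte markers tested were called lower and 1 higher, with AIF1, a macrophage marker, at 8.25, 0 and 0 TPM in CM10, against 205.36, 109.36 and 23.88 TPM in CTRL_CM10. Of the 13 leukocyte markers, 4, 9 and 11 were listed at 0 in CM10 replicates 1 to 3, against 1, 0 and 0 in CTRL_CM10. CD3D, CD8A and MS4A1, which define T and B cells, were at 0 in all CM10 libraries. In CTRL_CM10 they had 41.56, 1.59 and 3.63 TPM (CD3D), 9.13, 0.79 and 2.69 TPM (CD8A) and 0, 2.14 and 12.99 TPM (MS4A1). Not all such markers were at 0, as CD3E, CD2 and PTPRC had 3.24, 1.38 and 0.81 TPM in CM10 replicate 1. CD79A, another B cell marker, had 0, 6.76 and 8.82 TPM in CM10, against 20.69, 7.89 and 24.22 TPM in CTRL_CM10. The part of leukocytes in the galectin result was not tested. With shared-word genes left out and TPM rescaled, an alternative added after seeing the data, neither galectin passed, with log2 fold changes of -3.75 for LGALS9 (adjusted p = 0.07238) and -4.02 for LGALS3 (0.1218). Calls over the whole table fell to 608 there, against 4003. LGALS3 also lost its call without CM10 replicate 3 (-3.32, adjusted p = 0.05324) or CTRL_CM10 replicate 1 (-4.60, adjusted p = 0.05328), and with a pseudocount of 0.1 (-6.02, adjusted p = 0.06329).

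With the hairpin neither galectin was called. LGALS9 had 34.08, 139.61 and 48.95 TPM in shZBTB7B, against 94.73, 15.96 and 514.35 TPM in CTRL_shZBTB7B. LGALS3 had 539.74, 282.99 and 91.95 TPM in shZBTB7B, against 252.57, 156.12 and 302.43 TPM in CTRL_shZBTB7B. These groups overlapped widely. CM10 was the lowest of the 4 groups for both genes, with no overlap with the next group up. LGALS9 has near-identical copies, LGALS9B and LGALS9C, and reads cannot be assigned among them with certainty. LGALS9B had 2.49, 0 and 2.28 TPM in CM10, against 0, 17.01 and 4.71 TPM in CTRL_CM10, and LGALS9C was listed at 0 in every CM10 library, against 0, 11.67 and 12.45 TPM in CTRL_CM10.

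IDO1 reached the highest TPM of the 10 genes and was the one called higher. It had 2788.92, 3557.90 and 3847.29 TPM in CM10 libraries, against 478.26, 1.78 and 13.41 TPM in CTRL_CM10. The log2 fold change was 6.98 (SE 1.57, limma adjusted p = 0.004978), or 7.98 relative to the median, and it lost its call without CTRL_CM10 replicate 3 (adjusted p = 0.06342). The value was 9.06 without CTRL_CM10 replicate 1 and 5.34 without CTRL_CM10 replicate 2. In shZBTB7B libraries IDO1 had 2765.37, 26.24 and 2954.35 TPM, against 22.98, 0.73 and 699.66 TPM in CTRL_shZBTB7B. Replicates 1 and 3 of the hairpin were at the level of CM10 libraries and replicate 2 at that of controls, and the gene was not called (4.30, SE 2.37, adjusted p = 0.1996).

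The level of IDO1 moved with the share of widely shared words. The 5 libraries with 53.3% to 70.5% of TPM in shared-word genes held the 5 highest IDO1 levels, the lowest of them 2765.37 TPM. RAB3B, a vesicle GTPase with 151 bases of such words in its 3′ UTR, had 24202.24, 22739.48 and 29272.71 TPM in CM10, against 2821.87, 8.11 and 31.08 TPM in CTRL_CM10. RAB3B had 27239.29, 116.06 and 18929.04 TPM in shZBTB7B, against 17.64, 2.33 and 3.44 TPM in CTRL_shZBTB7B. CTRL_shZBTB7B replicate 3 was the library where the genes parted, with IDO1 at 699.66 TPM and RAB3B at 3.44 TPM. In that library the interferon gamma targets CXCL9, CXCL10 and CXCL11, chemokines that attract T cells, were at 1025.51, 582.06 and 241.37 TPM, their highest values of the 12. Over the whole CM10 table, 2906 tested genes with a shared word had a median log2 fold change of 1.58 (1147 called higher and 165 lower), and 9382 without one had -1.42. Over the hairpin table these medians were -0.09 (2854 genes) and -1.72 (10568 genes). The part of shared sequence in the IDO1 values was not tested beyond this.

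**Figure D3:**
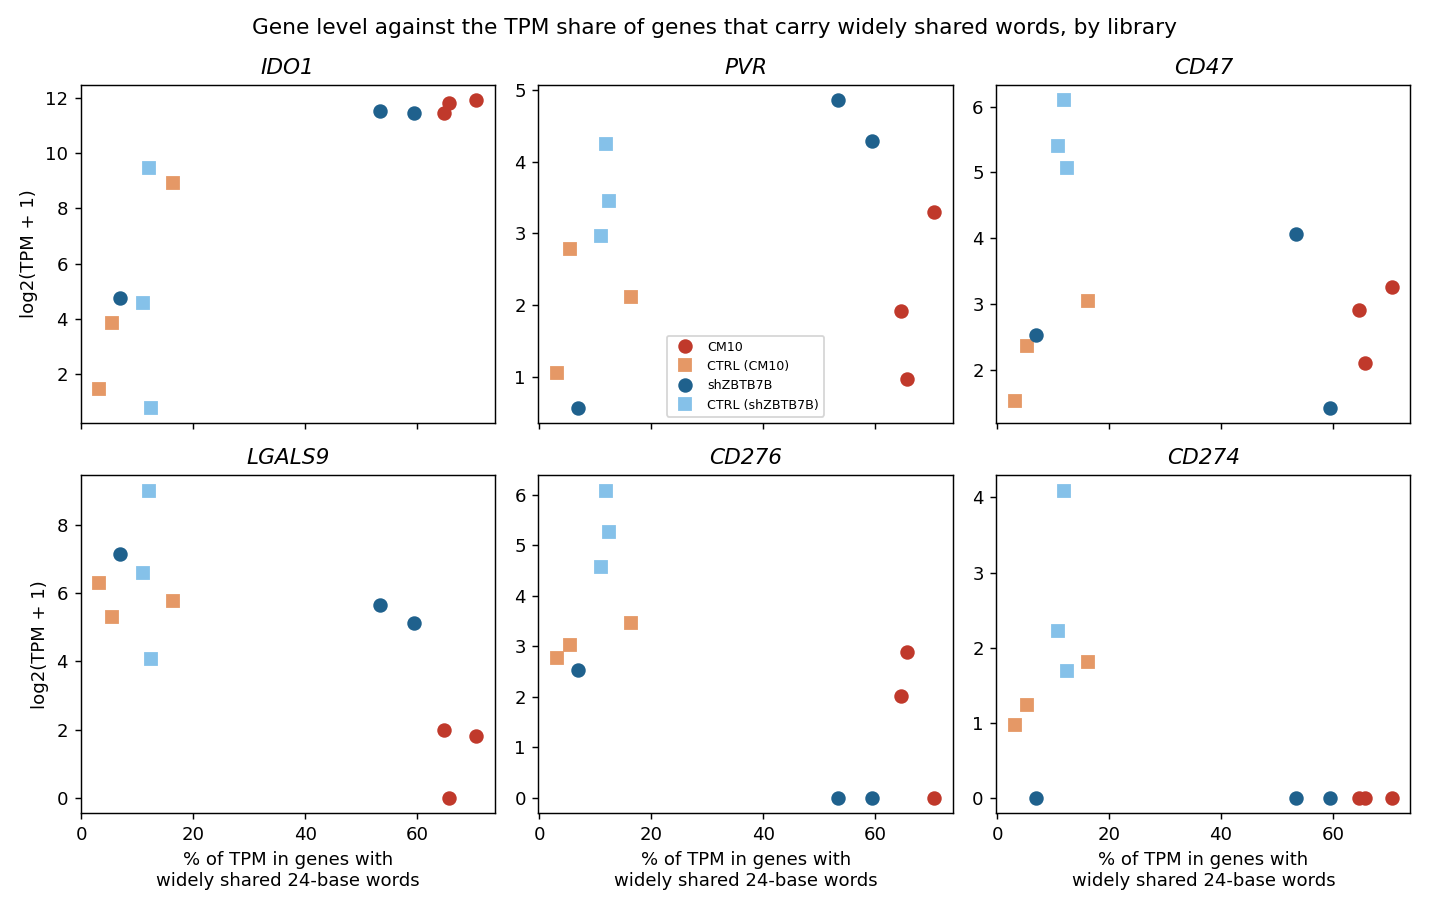
Level of 6 of the genes as log2(TPM + 1) against the percentage of a library's TPM in genes that carry a 24-base word found in at least 1000 genes, 1 point per library, with circles for CM10 and shZBTB7B and squares for their controls. IDO1 is high in the 5 libraries between 53.3% and 70.5%, and CD274 is above 0 only in the 6 control libraries.

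CM10 and the hairpin were also compared directly, since calls in 1 experiment alone do not show that effects differ. Of the 10 genes, 0 had an effect of CM10 that differed from that of the hairpin at an adjusted p under 0.05 in limma over all 12 libraries, and the same was true of all 15089 genes tested (0%). At an unadjusted p under 0.05 the counts were 4 of 10 and 1458 of 15089. The 4 were LGALS3, with a difference of -4.96 in log2 fold change (CM10 minus shZBTB7B, adjusted p = 0.4556), LGALS9 with -3.94, CD47 with 3.30 and CD276 with 3.01, beside a median of 0.63 over all genes.

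Genes outside the 10 were examined by list, and each count here and below is to be read against the shares called over all genes. These were 13.6% higher and 18.3% lower with CM10 and 0.717% higher and 11% lower with the hairpin. Of 6 receptors tested with CM10, 3 were called higher and 0 lower. CD226, the activating receptor for NECTIN2 and PVR, rose (log2 fold change 4.75, SE 0.97, limma adjusted p = 0.003669), and so did HAVCR2, which encodes TIM-3 (3.70, SE 0.94, adjusted p = 0.009363). The other receptor called higher was CD96, which also binds PVR (3.73, SE 1.02, adjusted p = 0.01346). With the hairpin 0 of 10 receptors were called higher and 1 lower, PVRIG, a receptor for NECTIN2 (-4.72, SE 0.95, adjusted p = 0.03836). Of 6 further B7 family genes tested with CM10, ICOSLG, the ICOS ligand, was called higher (4.29, SE 0.95, adjusted p = 0.004783) and CD86 and HHLA2 lower, and with the hairpin 0 of 7 were called. ICOSLG and CD96 carry a widely shared word, and CD226 and HAVCR2 do not. In shZBTB7B libraries CD226 had 48.73, 0.49 and 54.03 TPM, against 3.53, 0.26 and 5.61 TPM in CTRL_shZBTB7B. HAVCR2 had 31.21, 2 and 26.36 TPM, against 7.65, 1.96 and 64.17 TPM. Both were higher in shZBTB7B replicates 1 and 3, where shared-word genes had a high share, than in replicate 2. Of 11 other checkpoint ligands and partners, CM10 libraries had 1 called higher (SIGLEC10, a receptor of CD24 that carries a shared word) and 2 lower, CD48 and TNFRSF14. CD48, a leukocyte surface protein, had 0 TPM in all 3 CM10 libraries, against 51.73, 11.15 and 38.56 TPM in CTRL_CM10. With the hairpin 1 of 12 was called lower, HLA-E, the ligand of NKG2A, with 18.41, 138.78 and 45.42 TPM, against 949.98, 283.61 and 1251.18 TPM in CTRL_shZBTB7B. Of the other galectins 1 of 4 was called with CM10, LGALS12 (lower), and 0 of 4 with the hairpin. Of nectins and nectin-like genes 0 of 4 were called with CM10 and 1 of 7 with the hairpin, NECTIN1 (lower). CD86, CD48 and LGALS12 with CM10, and PVRIG and NECTIN1 with the hairpin, passed the filter only through their control libraries. They could therefore only be called lower. Among tryptophan and kynurenine enzymes, CM10 libraries had AFMID, the formamidase after IDO1 in the pathway, called higher and WARS1, the tryptophanyl-tRNA synthetase, called lower of 6 tested, and the hairpin had 0 of 8. AFMID had 639.19, 896.46 and 661.28 TPM in CM10, against 72.35, 4.85 and 15.10 TPM in CTRL_CM10, and it carries a widely shared word. In shZBTB7B it had 344.5, 18.66 and 279.02 TPM, against 8.99, 12.53 and 15.39 TPM in CTRL_shZBTB7B.

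The pathway by which interferon gamma induces PD-L1 runs from the receptor (IFNGR1 and IFNGR2) through JAK1 and JAK2 to IRF1. With CM10, 1 of its 12 genes was called higher, IRF1, and 2 lower, SOCS1, the feedback inhibitor, and JAK2. SOCS1 and JAK2 passed the filter only through the CTRL_CM10 libraries and could only be called lower. IRF1 had 573.00, 822.46 and 795.78 TPM in CM10 libraries, against 100.66, 13.95 and 28.62 TPM in CTRL_CM10 (log2 fold change 4.34, SE 1.15, limma adjusted p = 0.01127), and it carries a widely shared word. IRF1 was high in the CM10 libraries where CD274 was listed at 0. In shZBTB7B libraries IRF1 had 565.28, 24.26 and 526.78 TPM, against 71.27, 44.91 and 242.52 TPM in CTRL_shZBTB7B. CD274 was listed at 0 in every shZBTB7B library, and any relation between IRF1 and CD274 was not tested. With the hairpin 0 were called higher and 3 lower. JAK1 had 3.64, 12.91 and 6.41 TPM in shZBTB7B, against 100.96, 68.42 and 93.66 TPM in CTRL_shZBTB7B (-3.48, SE 0.74, adjusted p = 0.03836), and IFNGR1 had 0, 2.17 and 8.15 TPM, against 63.26, 40.13 and 117.43 TPM.

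Of the targets of interferon gamma tested with CM10, 1 of 9 was called higher and 5 lower, against 13.6% and 18.3% of all genes. The higher one was GBP4, a guanylate-binding protein that carries a widely shared word. It had 4213.06, 3982.74 and 5567.92 TPM in CM10, against 429.02, 5.13 and 15.81 TPM in CTRL_CM10. In shZBTB7B it had 4990.41, 16.48 and 3456.63 TPM, against 33.01, 6.82 and 176.13 TPM in CTRL_shZBTB7B. PSMB9, an immunoproteasome subunit, had 4.60, 0 and 0 TPM in CM10, against 49.74, 17.98 and 21.41 TPM in CTRL_CM10 (log2 fold change -3.97, SE 0.95, limma adjusted p = 0.006807), and GBP1 fell by 3.16 (SE 0.90, adjusted p = 0.016). With the hairpin 0 of 12 were called higher and 2 lower, the peptide transporter TAP1 and B2M, the light chain of class I molecules. B2M had 358.08, 987.01 and 508.48 TPM in shZBTB7B, against 5457.77, 1638.60 and 10184.90 TPM in CTRL_shZBTB7B (-2.99, SE 0.81, adjusted p = 0.04896). Of genes known to control the PD-L1 protein, 4 of 12 were called lower with CM10, among them COPS5, which removes ubiquitin from PD-L1, and TRAPPC4, which aids its recycling. With the hairpin 1 of 13 was called lower, STT3A, which adds its glycans. For CD47, THBS1, a secreted protein that binds it, was called lower with the hairpin, at 0, 2.03 and 5.20 TPM, against 57.85, 138.28 and 61.50 TPM in CTRL_shZBTB7B.

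**Figure D4:**
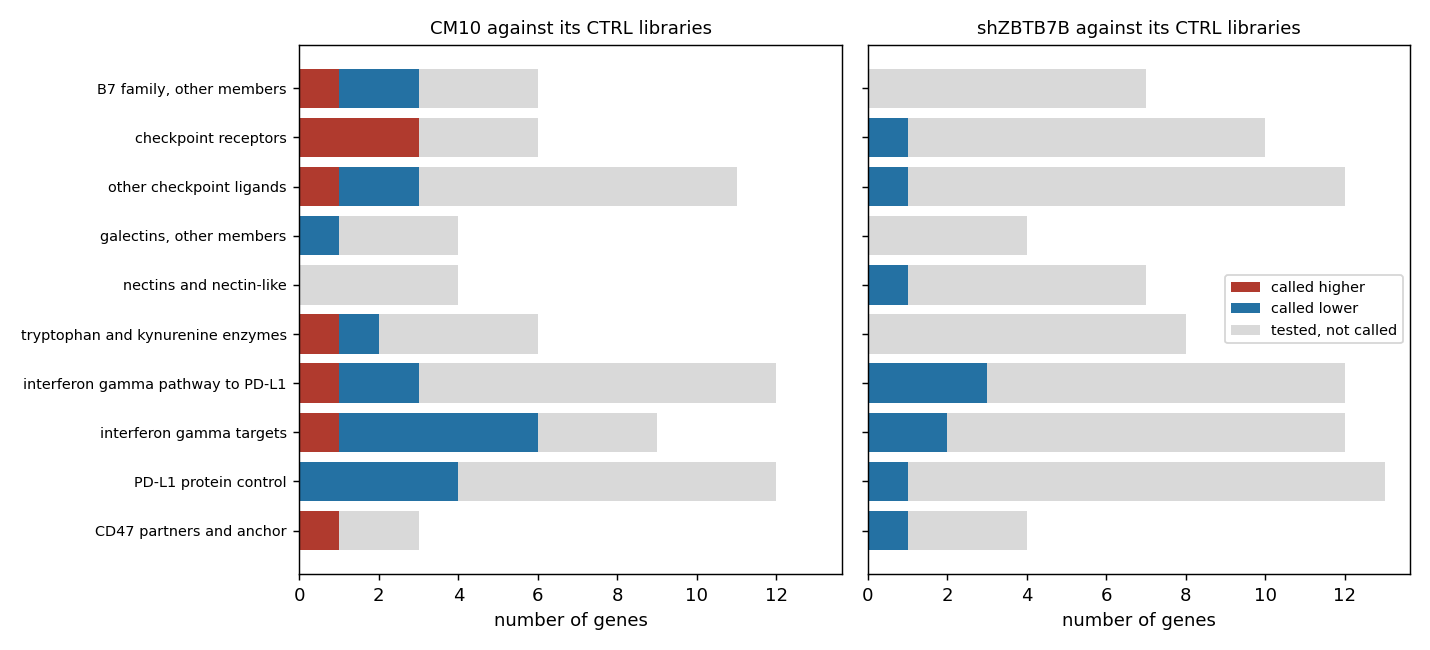
Number of genes tested in each list related to the 10 genes, split into called higher, called lower and not called, for CM10 (left) and shZBTB7B (right) against their controls. CM10 has calls in both directions, and all calls with shZBTB7B are lower.

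Beside the hairpin calls, markers of fibroblasts and endothelium were also called lower. Of fibroblast markers 5 of 6 were called lower with the hairpin, with sums of 55.1 to 322 TPM in shZBTB7B, against 1328 to 3364 TPM in CTRL_shZBTB7B. Of endothelial markers 4 of 4 were called lower, with sums of 0 to 9.03 TPM in shZBTB7B, against 134 to 306 TPM in CTRL_shZBTB7B. CDH5 and VWF, which define that lineage, were at 0 in all shZBTB7B libraries. CDH5, VWF and KDR passed the filter only through the control libraries and could only be called lower. Leukocyte markers had a median log2 fold change of -3.06 with 0 of 13 called, gastric gland markers 1.90 with 0 of 5 and colon epithelial markers 1.49 with 0 of 8. Smooth muscle markers, with 0 of 4 called, summed to 72.4 to 159 TPM in shZBTB7B and to 36.6 to 51644 TPM in CTRL_shZBTB7B. The part of these cell types in the lower CD274, CD276, VSIR and NECTIN2 was not tested. Of colon epithelial markers 2 of 8 were called lower with CM10 (KRT18 and EPCAM). With CM10, 1 of 6 fibroblast markers was called lower, with sums of 23.6 to 282 TPM in CM10, against 118 to 6071 TPM in CTRL_CM10, and endothelial and smooth muscle markers had 0 calls among 1 and 4 genes tested. Gastric gland markers summed to 300 to 4339 TPM in CM10, against 87.1 to 66012 TPM in CTRL_CM10 (1 of 6 called higher, PGA4), and to 21.8 to 75178 TPM in shZBTB7B, against 5.82 to 1012 TPM in CTRL_shZBTB7B.

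For each called gene and for CD274, the genes whose levels followed it most closely over the 12 libraries were listed by Pearson's r of log2(TPM + 1), as a description, since all libraries share their differences in composition. CD274 was followed most closely by ZNF497 (r = 0.973), SLC35A2 (0.965) and DGAT2 (0.959). SLC35A2, the Golgi UDP-galactose transporter, was listed at 0 in all CM10 and shZBTB7B libraries as CD274 was. CD276 was followed by PPAN (0.989), ALG3 (0.982) and THOP1 (0.977), VSIR by SBF1 (0.996), SNRK (0.993) and PTAR1 (0.991), and NECTIN2 by HYOU1 (0.983), ITGA6 (0.965) and MESD (0.965). LGALS3 was followed by S100A16 (0.972), S100A11 (0.971) and ATP5IF1 (0.971). LGALS9 was followed by PSME2 (0.958), an interferon-induced proteasome activator, PGD (0.945) and SH3BGRL3 (0.942). IDO1 was followed by ZBP1 (0.982), a sensor of nucleic acids, CD38 (0.975) and CCL5 (0.974). Of all the genes listed here, ZBP1, CCL5, PPAN and THOP1 carry widely shared words.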

How the data were processed

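Library RNA was captured with probes, per the labels. Per the study's methods, the authors aligned reads to hg19 with HISAT and estimated levels with RSEM (versions not given in the sources used here). The deposited values, 1 table per experiment, were taken as TPM from their column sums. Levels were compared as log2(TPM + 1), which understates changes of low genes, with limma 3.58.1 in R 4.3.3 (group as the only term, variance trend, two-sided, Benjamini-Hochberg).

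The 10 genes, lists and markers were chosen with earlier results of these data known. Named were the 10 genes, of each list the 2 called genes with the smallest p per direction (part of them given here), and the 3 genes most like CD274 and each called gene. ALDH1A1 and ZBTB7B were named as genes of the study, with LDHA (limma adjusted p = 0.05361 with CM10 and 0.06278 with the hairpin). CD79A, CD96, CXCL9, CXCL10, CXCL11, CDH23, LGALS9B, LGALS9C, RAB3B, the MTRNR2L family and markers named singly were chosen after their values were seen. Shared words (21 in all) were counted in protein-coding transcripts of 19807 GENCODE genes, after seeing the data. Promoters came from RefSeq and were searched with Python 3.11.15.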

Additional observations from a re-analysis of the deposited data

How the results depend on the processing

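The settings tried were quantile normalization, dropping the filter, a smaller pseudocount (0.1), genes above 1% of TPM in any library left out, the replicate number as a block, each library left out in turn and, added after seeing the data, shared-word genes left out. With CM10, 3 of the 10 genes and 4003 of the whole table were called. The count was 5 without genes above 1% of TPM, CD274 among them. Its value there was -2.13, with a limma adjusted p of 0.02763 from the fit without the filter. The count was 0 without shared-word genes (IDO1 and PVR then have no value), 2 with the smaller pseudocount and 2 to 5 with a library left out, highest without CM10 replicate 1. The table as a whole then had 6234, 608, 1964 and 1257 to 5776 calls. With the hairpin, 4 of the 10 genes and 1602 of the whole table were called. The count was 0 after quantile normalization, without the filter and without genes above 1% of TPM, 1 with the smaller pseudocount (CD274), 2 without shared-word genes (CD274 and CD276) and 0 to 5 with a library left out. It was 5 without shZBTB7B replicate 2, and 0 without shZBTB7B replicate 1 or 3 or any 1 control. The table as a whole had 0 calls wherever the 10 genes had 0, 468 with the smaller pseudocount, 879 without shared-word genes and 6887 without shZBTB7B replicate 2. CD274 with the hairpin was at -1.06 after quantile normalization (adjusted p = 0.3706), -2.67 without the filter (0.0816), -2.89 without genes above 1% of TPM (0.07134) and -3.16 to -1.95 with a library left out. Signs turned for values that had no call. Without genes above 1% of TPM, PVR was at -0.42 and CD47 at -0.055 with CM10. With the hairpin, LGALS9 and PVR were at 0.022 and 0.77 after quantile normalization, and LGALS9 at 0.057 without shared-word genes. With a library left out, the ranges were -0.54 to 0.62 for PVR and -1.37 to 0.31 for PDCD1LG2 with CM10, and -0.50 to 0.77 for LGALS3, -1.82 to 0.64 for LGALS9 and -1.12 to 1.02 for PVR with the hairpin. Effects of CM10 and the hairpin differed for 0 of the 10 genes under every alternative run. The cause of these shifts was not tested.

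Replicate numbers were shared between groups, but deviations of same-numbered libraries correlated at -0.079 to 0.028, so the numbers were not taken as pairs. With the replicate number as a block, 4 genes were called with CM10 (NECTIN2 added, adjusted p = 0.03941) and 5 with the hairpin (IDO1 added, adjusted p = 0.04618). Unknown depth, 3 libraries a group and values listed at 0 limit what any of these differences can show.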
